A study of Mus musculus with 7 samples.

Results

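The integrated stress response is described here through 10 genes, the transcription factor gene Atf4 and 9 genes that its protein is known to switch on, in bulk tumours grown from Lewis lung carcinoma cells. The genes were set by name (Atf4, Ddit3, Chac1, Asns, Trib3, Psat1, Phgdh, Shmt2, Sesn2 and Slc7a5), and each symbol matched 1 of the 32212 genes in the expression tables. All 10 passed the filter on low values, as did 14838 genes in all.

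The 7 libraries were made from poly(A) RNA of subcutaneous tumours in wild-type C57BL/6J mice, which received Lewis lung carcinoma cells, a transplantable mouse lung cancer line, under the skin at 6 weeks of age. The 3 ZQD libraries came from mice given Ze-qi decoction, a herbal preparation, at 42.67 g/kg, and the 4 control libraries came from tumour-bearing mice with no treatment. The labels place tumour collection on day 21 in one field and on day 22 in another. Whether every numbered sample is a mouse of its own is not stated, so the p-values describe the spread among these libraries alone, and that spread may be technical.

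Libraries held 34765330 to 38673663 counted reads in ZQD and 32065288 to 49914394 in controls. Reads of mitochondrially encoded genes made up 8.78% to 11.1% of the ZQD libraries and 5.18% to 7.96% of the control libraries. The labels call the samples tumour cells, but macrophage markers were abundant, with a summed level over 10 genes of 1207 to 1538 FPKM in ZQD and 847 to 1199 FPKM in controls. A higher mean in ZQD was found for 9 of the 10, for 7 of 7 neutrophil, 8 of 8 T cell, 5 of 5 endothelial and 5 of 6 fibroblast markers that passed the filter, and for 41.8% of all genes tested. Neutrophil markers summed to 22.5 to 78.7 FPKM in ZQD and 14.01 to 33.8 FPKM in controls. T cell markers summed to 25.2 to 36.3 FPKM in ZQD and 17.3 to 30.8 FPKM in controls. The sums for endothelial markers were 18.3 to 35.9 FPKM in ZQD and 17.1 to 29.2 FPKM in controls. Those for fibroblast markers were 30.2 to 209 FPKM in ZQD and 25.3 to 121 FPKM in controls. All of these ranges overlapped between the groups. The part of these cells in the results was not tested. Epithelial markers were sparse: Krt8 and Cldn4 were each at 0 in 1 library, Epcam did not exceed 0.288 FPKM, and Krt19 made up most of their summed level of 7.21 to 21.1 FPKM in ZQD and 9.13 to 33.5 FPKM in controls. In such bulk samples, fewer cells of a type and less RNA per cell cannot be told apart.

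Cells enter the integrated stress response when a kinase that senses amino acid shortage, unfolded protein in the endoplasmic reticulum, heme shortage or double-stranded RNA phosphorylates the initiation factor eIF2α. General protein synthesis slows, while the Atf4 messenger RNA is translated more efficiently, so its RNA level is not a measure of ATF4 protein. ATF4 then binds C/EBP-ATF response elements and raises genes for amino acid synthesis and import, and, under lasting stress, genes that brake growth or favour cell death.

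All 10 genes had a lower mean in ZQD than in control tumours, and none passed the test. The mean log2 fold changes (the ZQD mean less the control mean of log2(FPKM + 0.5)) ran from -0.20 for Phgdh to -0.72 for Chac1, with a median of -0.34, against -0.043 over all 14838 genes tested, of which 58.2% had a fold change below 0. FPKM are counted reads scaled by gene length and library total. The 0.5 added before the logarithm shrinks log2 fold changes of low genes. That of Chac1 was -0.77 with 0.1 added and -0.67 with 1 added. limma with Benjamini-Hochberg adjustment called 0 of the 10 at a threshold of 0.05 (adjusted p from 0.282 to 0.766), and 0 of all genes (0.00%). With no adjustment, limma placed Chac1 and Slc7a5 under 0.05, which makes 2 of the 10 lower and 0 higher; over all genes tested, 10.3% were lower and 5.21% higher on that count. Read counts were rebuilt from the FPKM for edgeR and DESeq2, which also called 0 of the 10, with smallest adjusted p of 0.317 in edgeR and 0.155 in DESeq2. Each tool placed 2 of the 10 under an unadjusted p of 0.05, where edgeR placed 15.0% and DESeq2 15.7% of all genes in either direction. edgeR called 0.00% of the 14832 genes it took lower, and DESeq2 1.83% of the 12525 genes with an adjusted p.

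The groups overlapped for every one of the 10 genes, whereas 9.84% of all genes tested had every ZQD library below every control. ZQD 1 was the lowest of the 7 libraries for all 10 genes; it was the lowest for 19.2% of all genes. Control 2 and control 4 held the highest value for 5 genes each, and ZQD 2, ZQD 3, control 1 and control 3 lay between. Without ZQD 1, the median log2 fold change of the 10 genes was -0.15 and that of Psat1 was 0.057. In that limma fit 0 of the 10 had an unadjusted p under 0.05, where 1871 of all 14838 genes tested did. The same count was 0 of the 10 without control 2 (2304 of all genes), 0 without control 4 (1767) and 4 without control 1 (1796). ZQD 1 also had the largest mitochondrial share of reads (11.1%). The summed level of epithelial markers was lowest in ZQD 1 (7.21 FPKM) and highest in control 2 (33.5 FPKM), almost all of it Krt19 (6.26 FPKM in ZQD 1 and 31.6 FPKM in control 2). Cdh1, the only other epithelial marker past the filter, was at 0.729 FPKM in ZQD 1 and lowest in control 2, at 0.551 FPKM. Control 4 was the lowest library for 8 of 8 T cell, 7 of 10 macrophage, 5 of 7 neutrophil and 4 of 6 fibroblast markers, and for 17.1% of all genes. Without control 4, the median log2 fold change was 0.062 for T cell and -0.072 for fibroblast markers, against 0.22 and 0.31 with all 7 libraries. Without ZQD 2, it was -0.065 for endothelial and -0.013 for fibroblast markers. The medians of macrophage and neutrophil markers stayed above 0 with any 1 library left out. The part of these in the result was not tested. With library totals taken without mitochondrially encoded genes, the median of the 10 genes was -0.29.

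**Figure D1:**
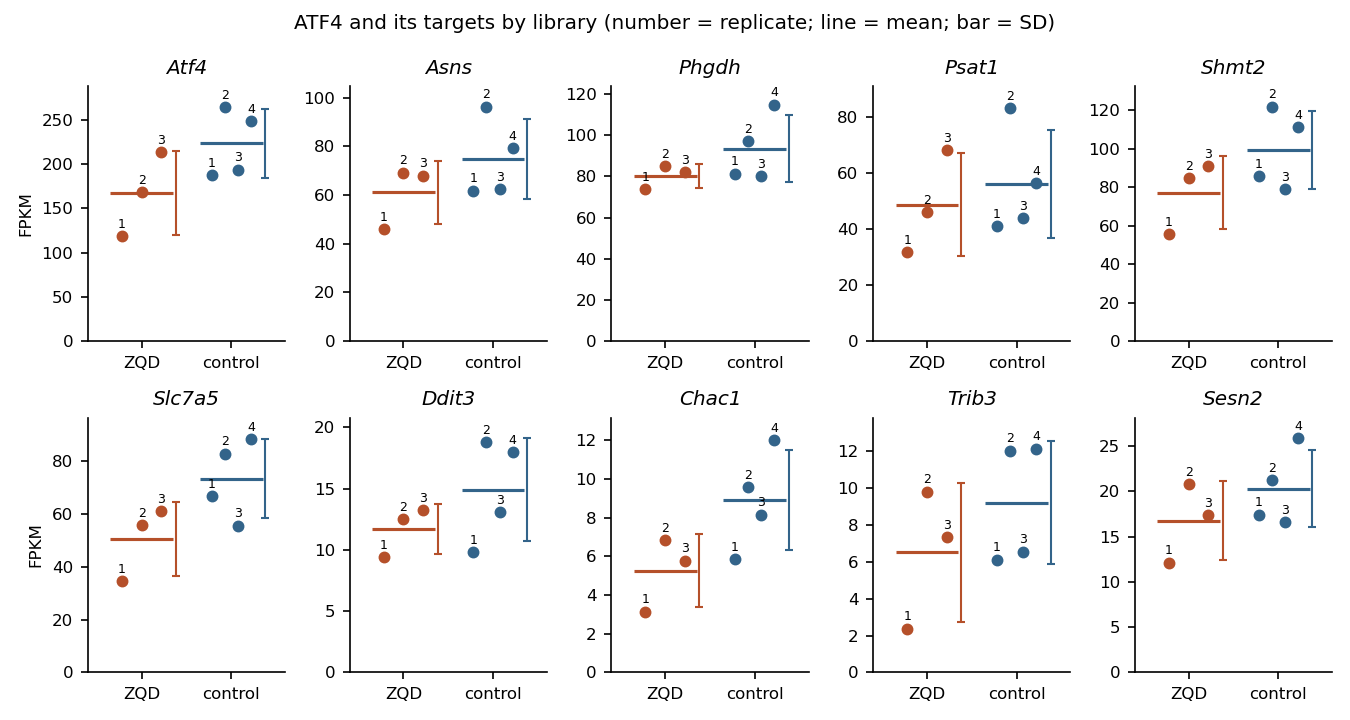
FPKM (vertical axis, linear from 0) of the 10 genes in 3 ZQD (left, orange) and 4 control libraries (right, blue). Points are libraries with their replicate number, lines are means and bars are SD; ZQD 1 is the lowest point in every panel, and the groups overlap in every panel.

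The response element that ATF4 shares with C/EBP proteins is commonly written TGATGNAA, with N for any base. It was searched on both strands of RefSeq promoter windows (build GRCm38.p6) that hold 250 bases before and 50 bases after each annotated start. There were 10 windows for 9 of the 10 genes. A gene counted if any of its windows matched, whereas the shares over all windows count each window. The letters occurred in the windows of 3 of these 9 genes, Asns, Chac1 and Trib3, and in 3.97% of all 32851 windows. A looser form, TGNTGNAA, which contains the first and was chosen after the windows had been read, occurred in 6 of the 9 genes (also Psat1, Phgdh and Sesn2) and in 14.8% of all windows. The windows of Atf4, Ddit3 and Shmt2 did not hold these letters, which says nothing of sites elsewhere. The windows of Asns, Chac1 and Trib3 are shown because they hold TGATGNAA, and that of Psat1 because its match to the looser form has the same letters as one in Trib3; capitals mark matches to the looser form, on either strand.
Asns, chr6:7693160-7693459, minus strand: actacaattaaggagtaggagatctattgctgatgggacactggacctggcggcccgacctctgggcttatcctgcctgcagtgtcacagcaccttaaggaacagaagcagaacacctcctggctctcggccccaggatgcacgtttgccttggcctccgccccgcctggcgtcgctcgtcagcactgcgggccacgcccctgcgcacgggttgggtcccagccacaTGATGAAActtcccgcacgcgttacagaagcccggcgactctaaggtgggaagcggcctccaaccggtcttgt
Chac1, chr2:119350992-119351291, plus strand: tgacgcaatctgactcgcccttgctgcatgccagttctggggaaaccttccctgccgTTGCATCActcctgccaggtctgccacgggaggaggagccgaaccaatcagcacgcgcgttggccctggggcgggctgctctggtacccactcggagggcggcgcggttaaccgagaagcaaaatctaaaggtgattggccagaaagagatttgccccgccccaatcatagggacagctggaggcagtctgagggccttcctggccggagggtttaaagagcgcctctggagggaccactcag
Trib3, chr2:152344011-152344310, minus strand: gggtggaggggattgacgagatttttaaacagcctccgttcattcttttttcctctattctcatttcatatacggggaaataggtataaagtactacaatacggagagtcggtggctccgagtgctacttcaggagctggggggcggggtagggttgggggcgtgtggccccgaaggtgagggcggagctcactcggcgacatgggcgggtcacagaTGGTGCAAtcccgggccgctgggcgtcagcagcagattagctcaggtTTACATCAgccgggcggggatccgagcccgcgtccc
Psat1, chr19:15925010-15925309, minus strand: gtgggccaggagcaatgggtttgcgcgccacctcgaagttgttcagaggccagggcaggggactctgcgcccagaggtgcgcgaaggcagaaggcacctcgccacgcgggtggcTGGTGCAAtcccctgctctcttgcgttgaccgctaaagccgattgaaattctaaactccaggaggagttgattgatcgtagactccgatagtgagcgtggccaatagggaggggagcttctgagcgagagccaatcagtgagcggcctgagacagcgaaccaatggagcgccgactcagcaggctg
In Asns the match, TGATGAAA, lay on the gene's own strand from base -23 to base -16, counted from the annotated start. In Chac1, TGATGCAA lay on the opposite strand from -193 to -186. Trib3 held TGGTGCAA on its own strand from -33 to -26 and TGATGTAA on the opposite strand from 15 to 22 after the start. Psat1 held TGGTGCAA from -136 to -129 in the window shown, and its other window held neither form. A match describes letters only; binding of ATF4 was not measured.

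Atf4 (ENSMUSG00000042406) itself was the most abundant of the 10 genes, above 99.1% of the genes tested by mean FPKM. It was at 119, 169 and 214 FPKM in ZQD 1 to 3, and at 188, 265, 194 and 248.6 FPKM in controls 1 to 4. ZQD 1 and ZQD 2 lay below every control, and ZQD 3 lay above control 1 and control 3. The means were 167 ± 47.4 FPKM (SD, n = 3) in ZQD and 224 ± 38.8 FPKM (SD, n = 4) in controls, for a log2 fold change of -0.44 (SE 0.207, 95% interval -0.92 to 0.028, limma adjusted p = 0.345). An exact two-sided permutation test over the 35 ways to assign 3 of 7 libraries to ZQD gave p = 0.143, where the smallest p the design allows is 0.0286. Without ZQD 1 the log2 fold change was -0.22.

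Among the enzymes of amino acid synthesis, asparagine synthetase (Asns, ENSMUSG00000029752), which makes asparagine from aspartate, was at 46.0, 69.1 and 68.0 FPKM in ZQD 1 to 3. In controls 1 to 4, Asns was at 61.8, 96.3, 62.3 and 79.2 FPKM. ZQD 2 and ZQD 3 stood above control 1 and control 3, and the log2 fold change was -0.29 (SE 0.196, limma adjusted p = 0.499), or -0.10 without ZQD 1.

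Phgdh (ENSMUSG00000053398) encodes phosphoglycerate dehydrogenase, which diverts a glycolytic intermediate into serine. It was the steadiest of the 10 genes, at 73.8, 85.1 and 82.2 FPKM in ZQD and 81.4, 97.3, 80.1 and 115 FPKM in controls 1 to 4. Its highest library, control 4, was 1.56 times its lowest, and the log2 fold change was -0.20 (SE 0.136, limma adjusted p = 0.497), or -0.098 without control 4. Its pseudogene Phgdh-ps1 did not exceed 0.0343 FPKM.

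Psat1 (ENSMUSG00000024640), the aminotransferase that follows PHGDH in the serine pathway, was at 31.8, 46.0 and 68.2 FPKM in ZQD 1 to 3 and at 41.0, 83.3, 43.8 and 56.3 FPKM in controls 1 to 4. ZQD 3 exceeded all controls but control 2. The log2 fold change was -0.21 (SE 0.298, limma adjusted p = 0.766). It was 0.057 without ZQD 1 and -0.0052 without control 2.

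Shmt2 (ENSMUSG00000025403), the mitochondrial enzyme that splits serine into glycine and a one-carbon unit, was at 55.7, 84.9 and 91.1 FPKM in ZQD and 85.7, 122, 79.1 and 111 FPKM in controls 1 to 4. Only ZQD 1 of the ZQD libraries lay below all controls. The means were 77.2 ± 18.9 FPKM (SD, n = 3) in ZQD and 99.5 ± 20.4 FPKM (SD, n = 4) in controls, and the log2 fold change was -0.37 (SE 0.207; limma adjusted p = 0.417), or -0.16 without ZQD 1.

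The amino acid importer gene Slc7a5 (ENSMUSG00000040010) encodes LAT1, which carries leucine and other large neutral amino acids into the cell. It was at 34.6, 55.7 and 61.2 FPKM in ZQD 1 to 3, and at 66.8, 82.9, 55.7 and 88.4 FPKM in controls 1 to 4. Controls 1, 2 and 4 lay above every ZQD library, and control 3 was at the level of ZQD 2. The log2 fold change was -0.55 (SE 0.222, 95% interval -1.06 to -0.046, limma adjusted p = 0.291), and the exact permutation p was 0.143. Without ZQD 1 it was -0.31.

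The stress effectors were less abundant than the enzymes, and Trib3 and Chac1 varied most of the 10 genes, with coefficients of variation over the 7 libraries of 43.7% and 39.3%, where that of Phgdh was 15.8%. Chac1 (ENSMUSG00000027313), which encodes a glutathione-degrading enzyme, was at 3.15, 6.84 and 5.78 FPKM in ZQD 1 to 3 and at 5.84, 9.59, 8.15 and 12.0 FPKM in controls 1 to 4. Controls 2, 3 and 4 lay above every ZQD library, while control 1 lay below ZQD 2. The means were 5.26 ± 1.90 FPKM (SD, n = 3) in ZQD and 8.89 ± 2.58 FPKM (SD, n = 4) in controls. The log2 fold change, the largest of the 10 in size, was -0.72 (SE 0.281, 95% interval -1.37 to -0.082, limma adjusted p = 0.282), with an exact permutation p of 0.0857. It was -0.43 without ZQD 1 and -0.57 without control 4.

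Trib3 (ENSMUSG00000032715), a pseudokinase that feeds back on ATF4 signalling, was at 2.37, 9.80 and 7.35 FPKM in ZQD 1 to 3. In controls 1 to 4, Trib3 was at 6.12, 12.0, 6.55 and 12.1 FPKM. The spread within each group was larger than the difference between them: ZQD 2 exceeded control 1 and control 3, and the highest library was 5.11 times the lowest. The log2 fold change was -0.59 (SE 0.434; adjusted p = 0.534 in limma), but -0.044 without ZQD 1 and -0.96 without ZQD 2. In ZQD 1, 186 reads gave the value of 2.37 FPKM, with an exact 95% Poisson interval of 2.05 to 2.74 FPKM that covers counting error only.

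Ddit3 (ENSMUSG00000025408) encodes CHOP, a transcription factor that promotes cell death under lasting stress. It was at 9.42, 12.5 and 13.3 FPKM in ZQD and at 9.84, 18.8, 13.1 and 17.96 FPKM in controls 1 to 4. Control 1 was nearly as low as ZQD 1, and the log2 fold change was -0.30 (SE 0.224, limma adjusted p = 0.535), or -0.16 without ZQD 1 and -0.18 without control 2. In GENCODE M21 its exons share 68 bases with Mars and 13 with Gm4189, both on the other strand. They also share 105 bases with a second entry named Ddit3 on the same strand, which has no expression values here. No source states whether counting used strand or that entry, so reads in these stretches are uncertain.

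Sesn2 (ENSMUSG00000028893), whose protein senses leucine and restrains the growth kinase mTORC1, was at 12.1, 20.8 and 17.3 FPKM in ZQD and at 17.4, 21.2, 16.6 and 25.9 FPKM in controls 1 to 4. ZQD 2 lay above control 1 and control 3. The log2 fold change was -0.28 (SE 0.204, limma adjusted p = 0.531), or -0.072 without ZQD 1 and -0.16 without control 4.

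**Figure D2:**
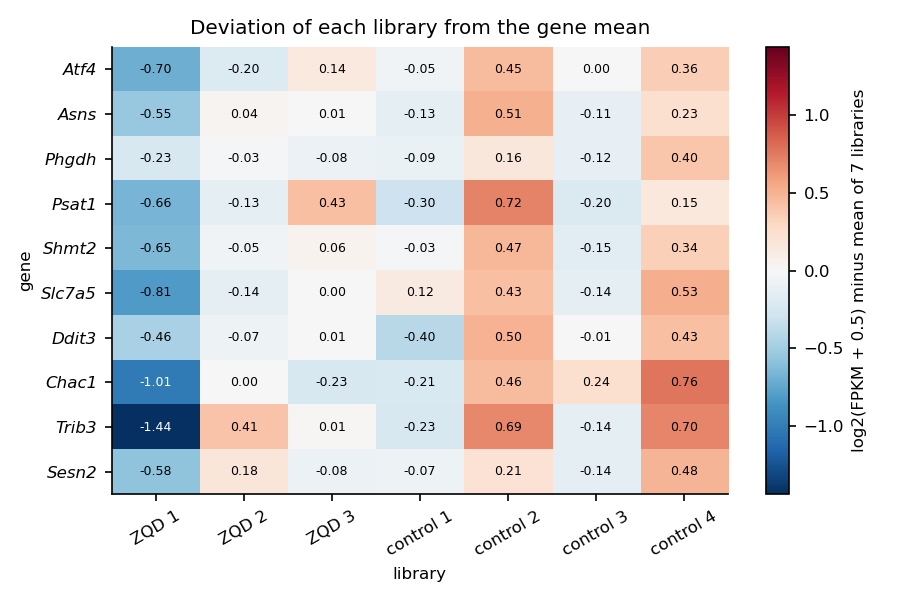
Deviation of each library from the mean of the 7 libraries, in log2(FPKM + 0.5), for 10 genes (rows) and 3 ZQD then 4 control libraries (columns); blue is below and red above the gene's mean. The ZQD 1 column is blue in all 10 rows, from -0.23 for Phgdh to -1.44 for Trib3, and the control 2 and control 4 columns are red in all 10.

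Ordered by mean FPKM over the 7 libraries, which compares genes per length, the genes ran from Atf4 (199) through Shmt2 (90.0), Phgdh (87.8), Asns (69.0), Slc7a5 (63.6), Psat1 (52.9), Sesn2 (18.8), Ddit3 (13.6) and Trib3 (8.05) to Chac1 (7.33). Some neighbours changed places between libraries. Shmt2 was above Phgdh in 3 of 7 libraries, Asns above Slc7a5 in 5, Slc7a5 above Psat1 in 5 and Trib3 above Chac1 in 5, so these pairs are not separated beyond their spread. The other neighbours kept their order in 7 of 7.

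Serine and asparagine synthesis was set against stress output by averaging log2(FPKM + 0.5) over Asns, Psat1, Phgdh and Shmt2 and over Ddit3, Chac1, Trib3 and Sesn2 in each library. The synthesis average was 6.01 ± 0.33 (SD, n = 3) in ZQD and 6.28 ± 0.31 (SD, n = 4) in controls, a difference of -0.27. The effector average was 3.19 ± 0.53 in ZQD and 3.67 ± 0.39 in controls, a difference of -0.48. Synthesis minus effectors was 3.05, 2.54 and 2.88 in ZQD 1 to 3 and 2.80, 2.71, 2.57 and 2.39 in controls 1 to 4. The groups overlapped, since ZQD 2 lay below 3 of the 4 controls, and the group means differed by 0.21, where the SD was 0.26 among ZQD and 0.18 among control libraries. That difference was 0.090 without ZQD 1, 0.35 without ZQD 2 and 0.13 without control 4. Relative to Atf4, the synthesis average stood at -1.25, -1.28 and -1.47 in ZQD 1 to 3 and at -1.52, -1.42, -1.58 and -1.51 in controls 1 to 4, again with overlap. The effector average relative to Atf4 was -4.31, -3.81 and -4.35 in ZQD and -4.32, -4.13, -4.15 and -3.90 in controls, with no separation of the groups. No test was run on these averages, as the genes were chosen with earlier results known. Genes of both kinds stood lowest in ZQD 1, where the synthesis genes deviated from their means by -0.52 on average and the effectors by -0.87.

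**Figure D3:**
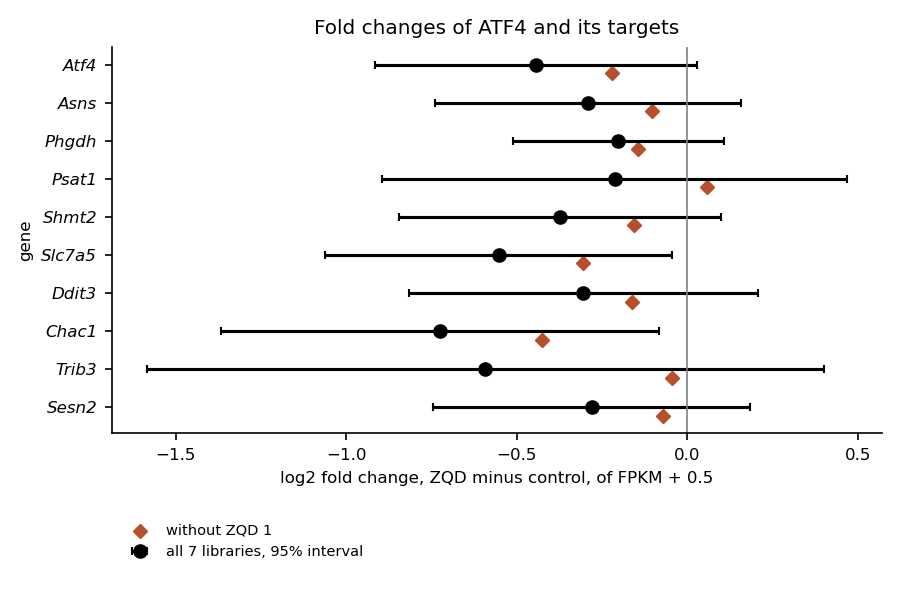
Log2 fold change (horizontal axis; ZQD mean less control mean of log2(FPKM + 0.5)) of the 10 genes with all 7 libraries (black points, bars are 95% intervals from limma) and without ZQD 1 (orange diamonds). All black points lie below 0, and the diamonds lie nearer to 0, with that of Psat1 at 0.057.

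The genes whose profile over the 7 libraries was most like that of Atf4 were sought among all genes tested, by the root mean square difference of log2(FPKM + 0.5) after each gene was centred on its mean. The nearest of 14837 genes was Mthfd2 (0.077), a mitochondrial one-carbon enzyme that acts downstream of SHMT2, and the next was Pycr1 (0.082), which makes proline. Pycr1 was low, from 0.772 FPKM in ZQD 1 to 2.52 FPKM in control 2, a range of 3.27 times against 2.23 times for Atf4. The added 0.5 shrinks the swings of so low a gene, and its place with another added value was not tested. Mthfd2 was at 19.1, 27.9 and 32.6 FPKM in ZQD 1 to 3 and at 32.3, 46.5, 28.9 and 41.3 FPKM in controls 1 to 4. Ajuba (0.087), a LIM-domain scaffold, the valyl-tRNA synthetase gene Vars (0.088) and Pfas (0.090), an enzyme of purine synthesis, completed the 5 nearest genes that are not among the 10. The median difference over all genes was 0.391.

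Of the 9 target genes, Shmt2 was the 5th nearest to Atf4, Slc7a5 the 27th and Asns the 45th. Ddit3 was the 165th, Sesn2 the 338th, Psat1 the 365th and Phgdh the 774th. Chac1 (0.272) was the 1534th, and Trib3 (0.405) was farther from Atf4 than the median gene. The measure counts the size of the swings as well as their order, and Trib3 ran wider than Atf4, with a highest library 5.11 times its lowest where that of Atf4 was 2.23 times.

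Upstream of ATF4, none of the genes tested passed in limma, and 1 was lower at an unadjusted p under 0.05, as were 10.3% of all genes. Of 7 genes for kinases, eIF2α and its phosphatase subunits, 6 had a lower and 1 a higher mean in ZQD, with a median log2 fold change of -0.084 against -0.043 over all genes. Eif2s1, which encodes eIF2α, was at 52.6 ± 0.622 FPKM in ZQD (SD, n = 3, here and below) and 53.4 ± 6.56 FPKM in controls (SD, n = 4, here and below). Eif2ak2, the kinase PKR, which interferon induces, was at 32.5 ± 3.26 FPKM in ZQD and 37.7 ± 4.35 FPKM in controls. Ppp1r15a, the GADD34 subunit that ATF4 induces to end the response, was at 9.07, 14.2 and 13.1 FPKM in ZQD 1 to 3 and at 15.3, 15.7, 16.04 and 21.3 FPKM in controls 1 to 4. Every ZQD library lay below every control there, as for 9.84% of all genes, and the log2 fold change was -0.49 (SE 0.172, limma adjusted p = 0.251), or -0.30 without ZQD 1.

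Among 8 transcription factors that partner, follow or act beside ATF4, 5 had a lower and 3 a higher mean in ZQD, and 0 passed in limma; 2 were lower and 1 higher at an unadjusted p under 0.05, where 10.3% of all genes were lower and 5.21% higher. Atf5, which is regulated at translation much as Atf4 is, was at 12.0, 15.97 and 22.8 FPKM in ZQD and 21.2, 33.7, 22.1 and 29.2 FPKM in controls 1 to 4 (log2 fold change -0.66, limma adjusted p = 0.251). Nfe2l2, the antioxidant regulator NRF2, was at 64.8 ± 4.52 FPKM in ZQD and 71.1 ± 5.70 FPKM in controls, and the stress-induced Nupr1 at 32.7 ± 6.25 FPKM in ZQD and 41.0 ± 3.16 FPKM in controls. Jdp2, a repressor of the AP-1 and ATF family, stood the other way, at 39.9, 41.7 and 39.3 FPKM in ZQD and 24.4, 31.6, 30.3 and 27.4 FPKM in controls 1 to 4. Every ZQD library was above every control, as for 5.35% of all genes, and the log2 fold change was 0.50 (SE 0.101, limma adjusted p = 0.154). DESeq2 called Jdp2 higher (adjusted p = 0.00135), as it did 2.30% of the genes with an adjusted p, whereas edgeR did not (adjusted p = 0.123).

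The other enzymes of serine, one-carbon and proline metabolism followed the library pattern of the 10 genes. All 11 had a lower mean in ZQD (median log2 fold change -0.30, and -0.12 without ZQD 1), 0 passed in limma, and 1, Mthfd2, was lower at an unadjusted p under 0.05 (10.3% of all genes were). ZQD 1 was the lowest library for 11 of the 11 and for 19.2% of all genes. Mthfd2 averaged 26.5 ± 6.85 FPKM in ZQD and 37.2 ± 8.05 FPKM in controls (log2 fold change -0.49, limma adjusted p = 0.318). Aldh18a1, which starts proline synthesis from glutamate, was at 28.2 ± 6.23 FPKM in ZQD and 34.6 ± 4.34 FPKM in controls. Pycr1 was at 1.27 ± 0.441 FPKM in ZQD and 1.95 ± 0.449 FPKM in controls.

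For amino acid transporters other than Slc7a5, 9 of 10 genes passed the filter, 8 with a lower and 1 with a higher mean in ZQD (median log2 fold change -0.20, and -0.12 without ZQD 1). In limma 0 passed, and 3 were lower at an unadjusted p under 0.05, against 10.3% of all genes. Slc38a2, the sodium-coupled transporter SNAT2, was at 64.1, 64.7 and 72.2 FPKM in ZQD 1 to 3 and at 82.8, 81.6, 78.8 and 91.3 FPKM in controls 1 to 4. The log2 fold change was -0.32 (SE 0.086; adjusted p = 0.186 in limma), and it was -0.29 without ZQD 1. Slc3a2, the heavy chain that pairs with LAT1, was at 36.7, 51.6 and 49.1 FPKM in ZQD and 53.6, 68.9, 52.1 and 66.9 FPKM in controls 1 to 4 (log2 fold change -0.40, limma adjusted p = 0.275). These were the 2 of 9 transporters whose groups did not overlap, where 9.84% of all genes were lower without overlap.

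Aminoacyl-tRNA synthetases, which load amino acids onto tRNA and many of which ATF4 induces, were taken with the tRNA exporter Xpot. All 14 had a lower mean in ZQD (median log2 fold change -0.24, and -0.14 without ZQD 1). In limma 0 passed, and 4 of the 14 were lower at an unadjusted p under 0.05, against 10.3% of all genes. ZQD 1 was the lowest library for 14 of the 14. Nars, the most abundant, was at 111 ± 11.7 FPKM in ZQD and 122 ± 10.96 FPKM in controls, and Sars at 89.6 ± 12.8 FPKM in ZQD and 98.9 ± 18.9 FPKM in controls. Aars was at 34.1 ± 4.78 FPKM in ZQD and 44.0 ± 5.28 FPKM in controls (log2 fold change -0.36, limma adjusted p = 0.252). Tars, at 34.3 ± 3.99 FPKM in ZQD and 42.5 ± 4.49 FPKM in controls, had groups that did not overlap. So did Yars, named for that reason after its values were seen, which makes 2 of 14 lower without overlap, against 9.84% of all genes.

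Among other stress output genes, 11 of 14 passed the filter, 9 with a lower and 2 with a higher mean in ZQD (median log2 fold change -0.31, and -0.34 without ZQD 1). In limma 0 passed, and 5 of the 11 were lower at an unadjusted p under 0.05, against 10.3% of all genes. ZQD 1 was the lowest library for 5 of the 11 and ZQD 2 for 4. Groups did not overlap for 2 lower genes and 1 higher gene of the 11, where 9.84% of all genes were lower and 5.35% higher without overlap. Ero1l, an oxidase that aids disulphide formation, was at 48.7 ± 14.4 FPKM in ZQD and 70.4 ± 16.7 FPKM in controls, and Eif4ebp1, a brake on cap-dependent translation, at 40.0 ± 5.92 FPKM in ZQD and 49.7 ± 7.43 FPKM in controls. Bbc3, the cell death gene for PUMA, was at 4.07, 2.97 and 4.01 FPKM in ZQD and 6.73, 4.82, 4.52 and 5.52 FPKM in controls 1 to 4 (log2 fold change -0.49, limma adjusted p = 0.216). Here ZQD 2, not ZQD 1, was the lowest. Gadd45a, a growth arrest gene, was at 11.2 ± 1.34 FPKM in ZQD and 14.5 ± 1.501 FPKM in controls (log2 fold change -0.36, limma adjusted p = 0.218).

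The ATF6 and XBP1 arms of the unfolded protein response, which raise chaperones of the endoplasmic reticulum, had a different order of libraries. Of 16 genes, 11 had a lower and 5 a higher mean in ZQD. The median log2 fold change was -0.10, and it was -0.14 without ZQD 1 and -0.0076 without ZQD 2. Without ZQD 1, that of the 10 genes was -0.15. In limma 0 passed, and 3 of the 16 were lower at an unadjusted p under 0.05, against 10.3% of all genes. ZQD 2 was the lowest library for 12 of the 16 and for 21.0% of all genes, and ZQD 1 was the lowest for 1 of the 16. Averaged over the 16 genes, ZQD 1 deviated from the gene means by 0.078 and ZQD 2 by -0.22. Calr, the most abundant, was at 453 ± 43.2 FPKM in ZQD and 464 ± 8.93 FPKM in controls, and Hsp90b1 at 309.9 ± 24.5 FPKM in ZQD and 291 ± 17.9 FPKM in controls. Sdf2l1 was at 16.3, 12.5 and 17.4 FPKM in ZQD and 21.9, 21.6, 19.6 and 22.5 FPKM in controls 1 to 4, with a log2 fold change of -0.47 (limma adjusted p = 0.173). Hyou1, at 31.2 ± 5.40 FPKM in ZQD and 41.2 ± 2.36 FPKM in controls, had a log2 fold change of -0.41 (limma adjusted p = 0.193). Sdf2l1, Hyou1 and Hspa5, the last named after its values were seen, were the 3 of 16 lower without overlap, against 9.84% of all genes.

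**Figure D4:**
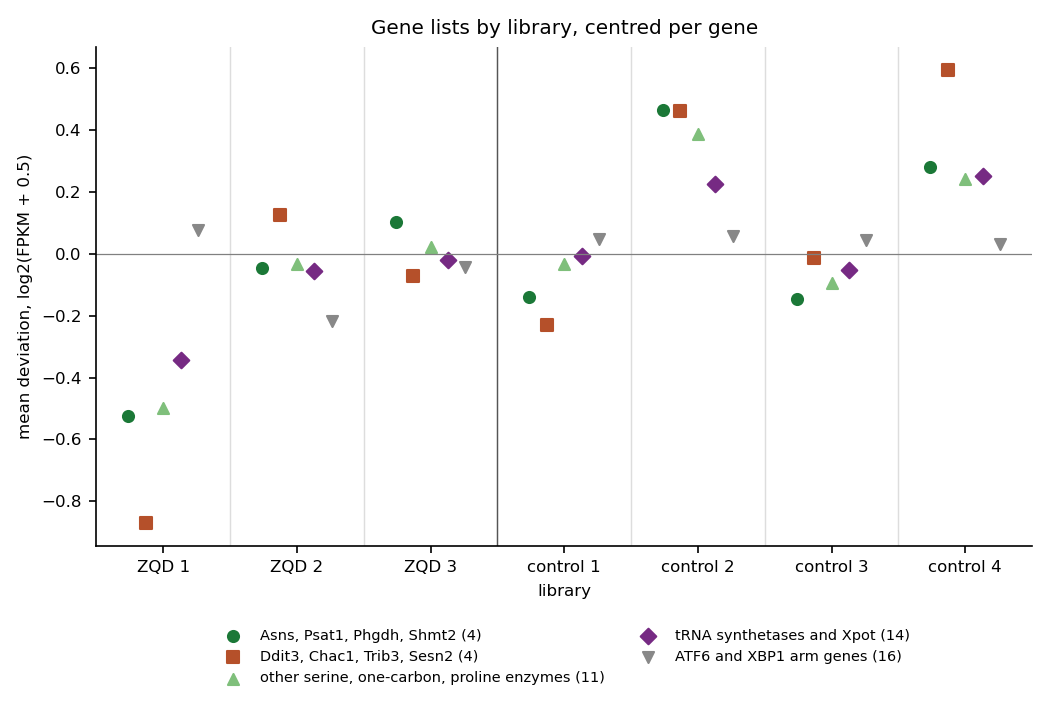
Mean deviation from the gene mean in log2(FPKM + 0.5) (vertical axis) for 5 gene lists in 3 ZQD (left of the dark line) and 4 control libraries. The 4 lists of ATF4 targets shown sit lowest in ZQD 1, between -0.34 and -0.87. The ATF6 and XBP1 list sits at 0.078 there and lowest in ZQD 2. Other amino acid transporters and other stress output genes, each at -0.32 in ZQD 1, are not shown.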

How the data were processed

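Messenger RNA sequencing of 7 tumour libraries was analysed, 3 ZQD and 4 control, grouped by the sample titles. The files the authors deposited hold FPKM for each library, and 2 of them, for control 1 and control 2, also hold a raw count per gene. HISAT2, featureCounts, Subread and DESeq2 are named per the submitters' processing notes; their versions, the build and the annotation used are not given in the sources. Symbols from a gene name table matched 98.0% of identifiers.

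In the 2 count files, count divided by FPKM and total count gave a length for 27421 genes. This length turned the FPKM of these genes back into read numbers, and 100% of the rebuilt values were whole to within 0.05 (for both libraries with a count file, by construction). edgeR and DESeq2 therefore took 14832 of the genes that passed the filter.

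The main test was limma 3.58.1 (trend, two-sided) in R 4.3.3 on log2(FPKM + 0.5). It took the 14838 genes that reached 0.5 FPKM in 3 or more libraries, at a Benjamini-Hochberg adjusted p under 0.05 over all genes. edgeR 4.0.16 and DESeq2 1.42.0 on the rebuilt reads, scaling, pseudocount, filter, weights, replicate block and leaving out libraries were alternatives. Fits were first tested on simulated data. Depth limits Chac1 and Trib3 most, at 186 to 1016 reads per library.

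The 10 genes and the other lists were chosen with earlier results of these data known. Other genes named are, from each list, the 2 of highest mean FPKM and the 2 of smallest unadjusted p, plus the 5 nearest to Atf4 with a mean FPKM of at least 1, predicted genes left out.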

Additional observations from a re-analysis of the deposited data

How the results depend on the processing

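Across 20 alternatives, 199 of 200 log2 fold changes of the 10 genes kept their direction and stayed above an adjusted p of 0.05. The smallest adjusted p was 0.155, for Chac1 in DESeq2. Not all 200 were free to change direction. The alternative filters and the fit without a trend cannot alter these fold changes. The replicate block gave the same fold changes as leaving out control 4 (Chac1 -0.57 in both). Psat1 turned to 0.057 without ZQD 1, and ran down to -0.49 without ZQD 3. The median of the 10 ran from -0.50 without ZQD 3 to -0.15 without ZQD 1. The TPM scale shifted the median of all genes by -0.10; relative to it the median of the 10 was -0.30, as it was on the FPKM scale. The number of the 10 with an unadjusted p under 0.05 was 1 with median-of-ratios scaling, 0 with library weights and 0 to 4 with 1 library left out, against 2. Over all 14838 genes, that number was 2179 with median-of-ratios scaling, 2246 with library weights and 1767 to 2304 with 1 library left out, against 2306. Over all genes, DESeq2 called 517, against 0 in limma and in edgeR; the cause was not tested. With 1 library left out, limma called 0 genes each time.

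For same-numbered libraries, deviations from the group means correlated over genes at 0.25, 0.10 and -0.15 for numbers 1 to 3. The numbers were not taken as pairs, though these few values cannot settle whether a pairing exists. With the replicate number as a block, limma called 1 gene, and 1 of the 10 had an unadjusted p under 0.05, where 1788 of all genes did. ZQD 1 correlated best with control 3, ZQD 2 with control 2 and ZQD 3 with control 2.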
